A study of Mus musculus with 5 samples.

Results

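A group of 10 transcription factor genes was followed across neurons of the newborn mouse hippocampus: Meis1, Meis2 and Meis3, Foxp1, Foxp2 and Foxp4, Tshz1, Tshz2 and Tshz3, and Pbx3. They are 10 of the 32285 genes in the count matrices, all 10 were listed by name, and they were chosen by their measured levels, which differed between neuron types in these same cells. The levels per type and the co-detection below are therefore descriptions without a test, and only the genotype comparison carries one. Single cells came from hippocampi dissected at postnatal day 1 and dissociated with papain. There were 2 libraries from Trem2 -/- pups (knockout libraries 2 and 3) and 3 from Trem2 +/+ pups (wild-type libraries 1, 2 and 3), each a pool of 2 pups, so the library is the replicate. The pools numbered 2 held 2 males and the others 1 female and 1 male. Trem2 encodes a receptor of microglia, and the series asks what its loss does to neurons during development.

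MEIS and PBX proteins are TALE homeodomain factors that bind DNA together, with PBX acting as the partner. FOXP proteins are forkhead repressors that pair with one another, and TSHZ proteins are zinc-finger homeobox repressors. In the developing forebrain Meis2, Foxp1 and Foxp2 are known from striatal neurons, Foxp1 also from pyramidal neurons, and Meis2, Tshz1 and Foxp2 from cells of the lateral ganglionic eminence (LGE) that reach the olfactory bulb and the intercalated cells of the amygdala.

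The libraries held 6512 to 10582 barcodes and 6.00e+07 to 9.12e+07 UMIs (unique molecular identifiers, 1 per captured RNA molecule), and 29230 cells were kept, with a median of 7712 to 9122 UMIs per cell. Libraries shared 8 to 21 cell barcodes pairwise. Trem2 stood at 46.6 and 99.6 CPM (counts scaled to 1e+06 UMIs) in microglia-gated cells of the knockout libraries, against 1067, 1245 and 832 CPM in wild-type libraries 1, 2 and 3. Gates on marker genes, none of them a member, found 11898 excitatory and 1790 inhibitory neurons. The inhibitory neurons divided into 763 MGE-like cells (medial ganglionic eminence, with Lhx6, Sst and Nxph1), 599 CGE-like cells (caudal eminence, with Adarb2 and Htr3a), 9 LGE-like cells, 29 Zic1-Zic4 cells and 390 others, which had a median of 4120 UMIs against 9247 in the MGE gate and 6588 in the CGE gate. Of the 29 Zic1-Zic4 cells, 28 came from knockout library 3, which stands apart in this, and results on inhibitory neurons are given with and without those cells and the LGE-like ones where they matter. Excitatory types were 1774 dentate granule, 959 CA1, 349 CA3, 256 Nts-Nr4a2, 2105 Sema3c-Cntn2 and 6455 other neurons, and 1194 Cajal-Retzius cells were gated apart. Levels below are CPM of the summed cells of a type in a library, as mean ± SD over 5 libraries where no genotype is named. They compare a gene across types, not genes with each other.

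Foxp1 and Meis2 were both high in CA1 neurons and differed in Nts-Nr4a2 and Sema3c-Cntn2 neurons. Foxp1, a forkhead repressor, was highest in CA1 neurons, at 816 and 946 CPM in knockout libraries 2 and 3, against 954, 977 and 840 CPM in wild-type libraries 1, 2 and 3. The Nts-Nr4a2 neurons followed at 722 ± 138 CPM, and the ranges over libraries of the CA1 and Nts-Nr4a2 types overlapped. A gap separated both from other excitatory neurons at 246 ± 34.7 CPM, Sema3c-Cntn2 neurons at 190 ± 36.2 CPM and CA3 neurons at 189 ± 27.8 CPM. Granule neurons stood at 85.6 ± 12.1 CPM and MGE-like neurons were lowest at 53.4 ± 6.57 CPM, 17 times below CA1. The 38% of CGE-like cells with a Foxp1 UMI did not exceed the 39.7% of microglia, at median depths of 6588 and 8023 UMIs.

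Meis2, a TALE homeodomain factor, reached 514 and 447 CPM in Sema3c-Cntn2 neurons of knockout libraries 2 and 3, against 538, 448 and 559 CPM in wild-type libraries 1, 2 and 3. CA1 neurons were next, at 389 and 438 CPM against 447, 398 and 480 CPM, so that the ranges of both types overlapped. The CA1 gate thus held high levels of Meis2 and Foxp1 together, whereas Sema3c-Cntn2 neurons were high in Meis2 and Nts-Nr4a2 neurons in Foxp1, with Meis2 there at 81.3 ± 28.9 CPM. CA3 neurons had 92.8 ± 14.3 CPM of Meis2, granule neurons 47.0 ± 12.4 CPM and Cajal-Retzius cells 11.6 ± 3.23 CPM. In MGE-like neurons 8.79 ± 3.61 CPM were measured, below the 21.9 CPM of microglia. Foxp4, the third forkhead member, ran over a lower range, between 34.2 ± 3.62 CPM in CA1 and 2.52 ± 0.73 CPM in Cajal-Retzius cells, and neighbours in its order overlapped except the last pair. Over the 10 types with cells in all libraries the log2(CPM + 1) levels of Meis2 and Foxp4 correlated at r = 0.79, those of Foxp1 and Foxp4 at r = 0.77 and those of Meis2 and Foxp1 at r = 0.62, where the points share libraries and depth.

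**Figure D1:**
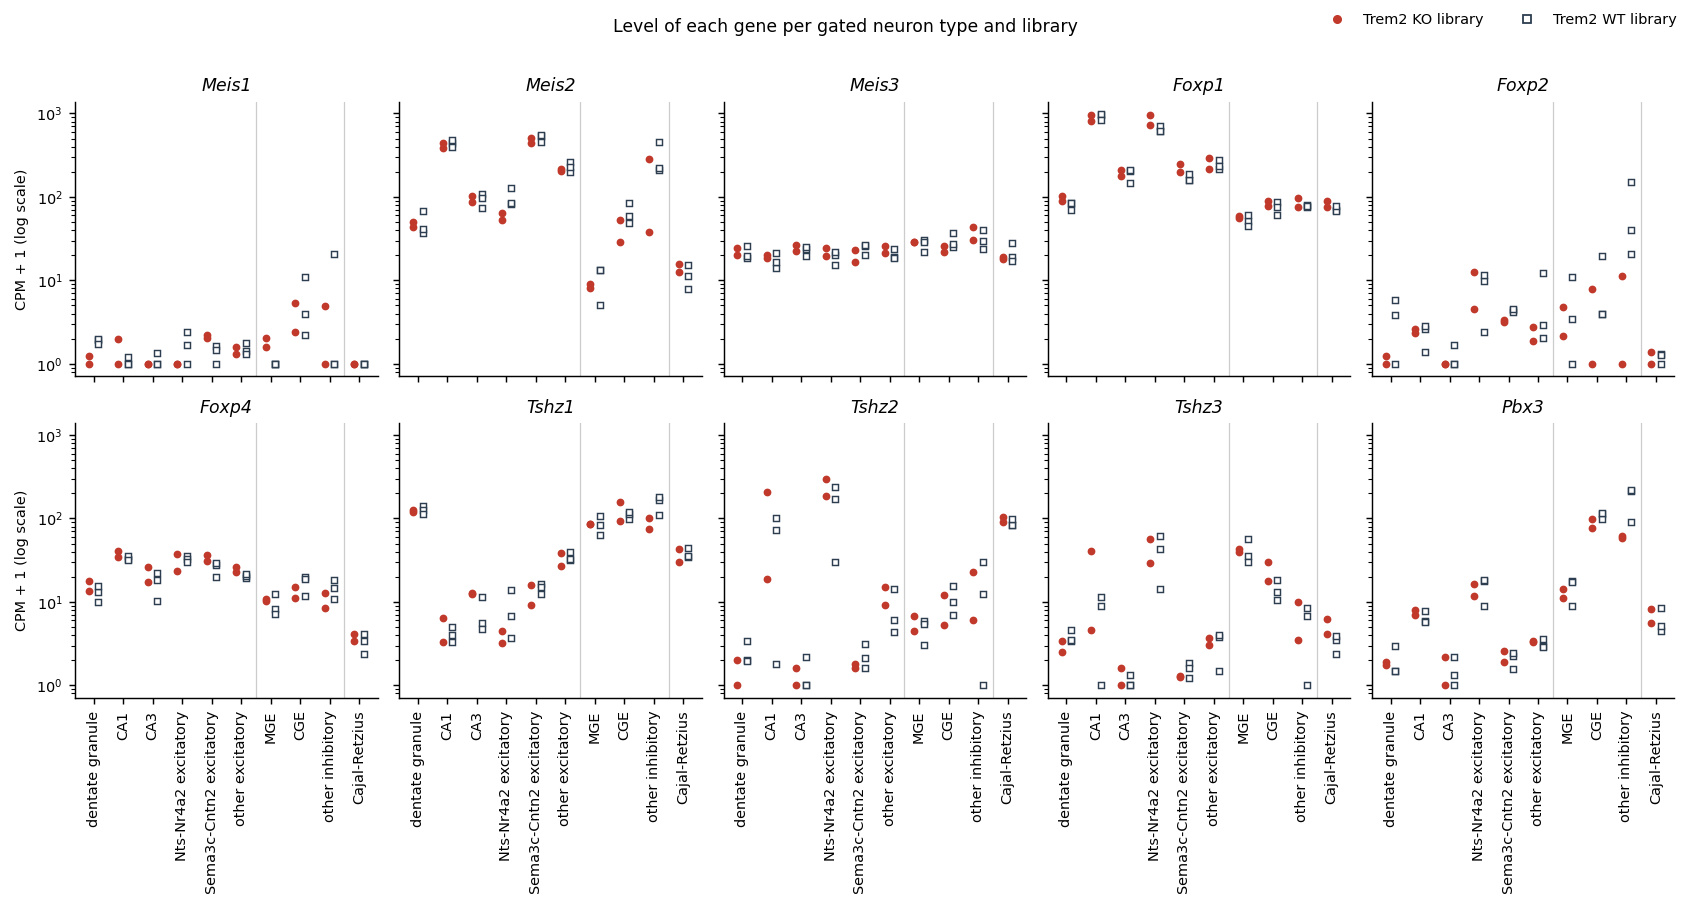
CPM + 1 on a log scale (y) of each gene in 10 gated types (x) in the Trem2 KO libraries (filled circles) and the Trem2 WT libraries (open squares), 1 symbol per library. Foxp1 peaks in CA1 and Nts-Nr4a2 neurons, Meis2 in CA1 and Sema3c-Cntn2 neurons, Tshz1 in granule and inhibitory neurons, Pbx3 in CGE-like and other inhibitory neurons, and Meis3 stays between 17.1 and 32.6 CPM on average.

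Tshz1 took nearly the opposite places to Foxp1. This zinc-finger homeobox gene stood at 124 and 119 CPM in granule neurons of knockout libraries 2 and 3, against 141, 126 and 113 CPM in wild-type libraries 1, 2 and 3. Other inhibitory neurons had 125 ± 44.9 CPM, CGE-like neurons 115 ± 26.1 CPM and MGE-like neurons 83.9 ± 15.2 CPM, and neighbours in this order overlapped. CA1 neurons were lowest at 3.41 ± 1.34 CPM, with Nts-Nr4a2 neurons at 5.40 ± 4.42 CPM. The correlation of Tshz1 with Foxp1 over the 10 types was -0.88. Within the other excitatory neurons the same contrast recurred: the 269 cells with at least 3 Tshz1 UMIs had 84.9 CPM of Foxp1 and 89.1 CPM of Meis2, against 281 and 242 CPM in the 5002 cells with none. The Tshz1-high cells also carried more Prox1, the granule neuron factor, at 479 against 86.3 CPM. A stricter granule gate of 106 cells gave 60.3 CPM of Tshz1.

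Tshz2 and Tshz3 met in a small set of excitatory cells. Tshz2 was highest in Nts-Nr4a2 neurons, at 183 and 293 CPM in knockout libraries 2 and 3, against 238, 29.1 and 171 CPM in wild-type libraries 1, 2 and 3. Wild-type library 2 was low, and it contributed 19 Nts-Nr4a2 cells. Cajal-Retzius cells had a steadier 91.3 ± 9.33 CPM. In the CA1 gate Tshz2 ran over 17.9 and 204 CPM in the knockout libraries, against 99.9, 0.81 and 72.6 CPM in the wild-type libraries. That spread came from few cells: 91 of 959 CA1-gated cells had a Tshz2 UMI, and 67 cells with at least 3 held 97.7% of its 1313 UMIs. They numbered 5 and 26 in knockout libraries 2 and 3, against 15, 0 and 21 in wild-type libraries 1, 2 and 3. CA3, granule and Sema3c-Cntn2 neurons had 0.35 to 1.07 CPM of Tshz2.

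Cells of the CA1 gate with at least 3 Tshz2 UMIs had 215 CPM of Tshz3, against 0.66 CPM in the 868 cells without one. A Tshz3 UMI was found in 74.6% of the Tshz2-high cells, against 0.69% of the cells with none and 2.03% of microglia. The Tshz2-high cells were the shallower ones, with median depths of 9815, 15110, 10157 and 10322 UMIs in knockout libraries 2 and 3 and wild-type libraries 1 and 3, against 14798, 16777, 16548 and 15341 UMIs in the cells with none. Foxp1 was lower in them, at 321 against 936 CPM, and so was Crym, at 163 against 2633 CPM, in each of the 4 libraries that hold Tshz2-high cells. Pou3f1, a marker used in the gate, was close between them, at 706 and 692 CPM, and Meis2 was at 518 and 433 CPM. The CA1 gate therefore holds cells that differ in the member genes and in Crym, and the markers used do not settle whether the Tshz2-high cells are CA1 neurons. The same pairing appeared in Nts-Nr4a2 neurons, where the 76 Tshz2-high cells had 108 CPM of Tshz3 and the 156 without Tshz2 had 7.89 CPM. Those Tshz2-high cells had less Meis2, at 30.6 against 104 CPM, and Foxp1 at 607 against 781 CPM.

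**Figure D2:**
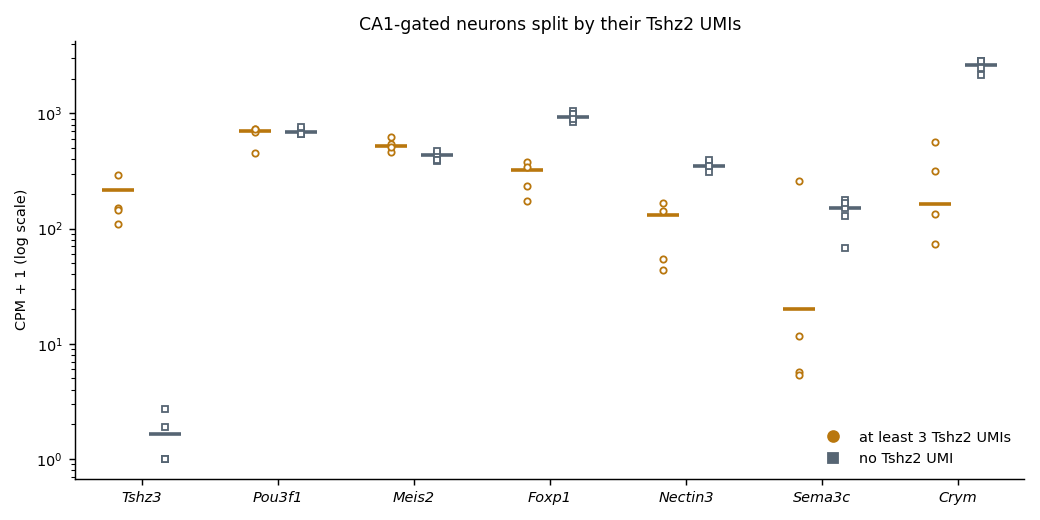
CPM + 1 on a log scale (y) of 7 genes (x) in CA1-gated neurons with at least 3 Tshz2 UMIs (67 cells) and with none (868 cells); bars are all cells pooled, symbols single libraries with at least 5 such cells. Tshz3 stands at 215 against 0.66 CPM and Foxp1 at 321 against 936 CPM.

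Tshz2 and Tshz3 were found in the same cells of the CA1 and Nts-Nr4a2 gates, whereas Cajal-Retzius cells had only 1.36 to 5.25 CPM of Tshz3. For that pairing the promoters of both genes are shown, as the 250 bases before the RefSeq start (GRCm38.p6, plus strand). They lie at chr2:169632259-169632508 for Tshz2 and at chr7:36697868-36698117 for Tshz3. Capitals mark matches to a GC box (GGGCGG, or CCGCCC on the other strand) and a CCAAT box (CCAAT or ATTGG).
Tshz2: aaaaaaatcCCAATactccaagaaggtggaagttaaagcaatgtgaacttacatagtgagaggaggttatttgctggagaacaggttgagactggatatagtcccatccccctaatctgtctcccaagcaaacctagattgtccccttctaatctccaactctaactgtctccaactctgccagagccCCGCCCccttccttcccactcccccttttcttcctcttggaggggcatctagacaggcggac
Tshz3: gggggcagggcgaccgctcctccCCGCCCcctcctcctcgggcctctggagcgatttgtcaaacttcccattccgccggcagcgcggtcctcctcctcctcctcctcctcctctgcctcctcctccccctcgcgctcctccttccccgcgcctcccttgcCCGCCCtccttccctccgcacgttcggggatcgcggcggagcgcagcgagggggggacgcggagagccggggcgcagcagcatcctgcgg
Tshz2 has 1 GC box and 1 CCAAT box in a window of 48.8% GC, and Tshz3 has 2 GC boxes and no CCAAT box in a window of 74% GC. GC boxes occur in 32.7% and CCAAT boxes in 33.8% of 32851 RefSeq promoter windows of this length, whose median GC is 52.4%. Neither window holds TATAAA, the MEIS core TGACAG or the forkhead core TGTTTA, on either strand, which occur in 12.4%, 15.9% and 12% of the windows. The matches overlap no other motif searched.

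Tshz3 itself was as high in MGE-like inhibitory neurons as in Nts-Nr4a2 neurons. MGE-like neurons had 41.9 and 39.0 CPM in knockout libraries 2 and 3, against 34.6, 56.2 and 28.9 CPM in wild-type libraries 1, 2 and 3. CGE-like neurons had 16.9 ± 7.49 CPM, CA3 neurons 0.19 ± 0.27 CPM, and granule and Sema3c-Cntn2 neurons at most 2.47 CPM. Pbx3, the TALE partner factor, lay on the other side of the inhibitory cells: CGE-like neurons had 97.3 and 75.4 CPM in knockout libraries 2 and 3, against 112, 98.7 and 116 CPM in wild-type libraries 1, 2 and 3. MGE-like neurons had 12.9 ± 3.75 CPM of Pbx3, below the 21.3 CPM of microglia, and CA3, granule and Sema3c-Cntn2 neurons at most 1.15 CPM. Other inhibitory neurons spread widely around 127 ± 81.2 CPM. Tshz3 was higher in the MGE than in the CGE gate in all 5 libraries, although the ranges of the gates touch, and Pbx3 was higher in the CGE gate with ranges that do not overlap.

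Meis3 hardly varied, with means of 17.1 CPM in CA1 and 32.6 CPM in other inhibitory neurons, 1.91 times apart, and 24.6 CPM in microglia. Meis1 was near the detection limit in neurons, with 64 UMIs in all excitatory and 30 in all inhibitory neurons. It averaged at most 4.72 CPM in any of the 10 neuron types with cells in all libraries. Foxp2 was sparse as well: 154 UMIs fell in 57 of the 1790 inhibitory neurons, and 20 cells with at least 3 held 70.8% of them. Among the 10 neuron types with cells in all libraries it was highest in other inhibitory neurons, at 0 and 10.3 CPM in knockout libraries 2 and 3, against 150, 39.5 and 19.7 CPM in wild-type libraries 1, 2 and 3. In excitatory neurons 295 of 468 Foxp2 UMIs came from wild-type library 3, where 12 cells held 70.2% of them.

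Over all inhibitory neurons Meis2, Foxp2 and Pbx3 were often found in the same cells, Tshz1 was frequent in cells with Foxp2, and Tshz3 and Pbx3 were seldom found together. Cells were thinned to 3000 UMIs each, which left 1540 cells and set aside 48 and 66 shallower cells in knockout libraries 2 and 3, against 26, 22 and 88 in wild-type libraries 1, 2 and 3. Of the 36 cells with a Foxp2 UMI, 19 had a Meis2 UMI, which is 52.8%, against 8.71% of the cells without Foxp2. The 19 cells numbered 1 and 2 in knockout libraries 2 and 3, against 8, 1 and 7 in wild-type libraries 1, 2 and 3. Pbx3 was found in 18 of the 36 Foxp2 cells and 13% of the rest, and Tshz1 in 63.9% and 23.5%. Of the 150 cells with Meis2, 29.3% had Pbx3, against 12.2% of the rest. Only 1 of 77 cells with a Tshz3 UMI had Pbx3, which is 1.30% against 14.5% of the other cells. Tshz1 was found in 24.8% of Foxp1 cells and in 24.4% of the rest. Within single gates the shares differed in part from these. Within the CGE gate Meis2 was found in 6 of 10 Foxp2 cells and Pbx3 in 36.4% of Meis2 cells against 23.5% of the rest, but Tshz1 in 29.1% of Meis2 cells against 30.9% of the rest, and Tshz3 in 3.64% against 4.41%. Within the MGE gate none of the 9 Foxp2 cells had Meis2 or Pbx3, against 3.23% and 4.92% of the rest. From the frequencies of the genes within libraries 0.25 and 0.41 such cells would be found, so this does not tell the gates apart. Tshz1 was found in 7 of these 9 cells, against 19.7% of the rest, and Tshz3 in 3, against 6.74%. Tshz1 was found in 4 of the 10 Foxp2 cells of the CGE gate, which is 40% against 30.5% of the rest. Pbx3 was found in 1 of 23 Tshz3 cells of the CGE gate, against 25.8% of the rest. In the MGE gate it was found in 0 of 51 Tshz3 cells, against 5.22% of the rest. In microglia thinned to the same depth the shares were 4.86% for Meis2, 5.41% for Pbx3 and 6.76% for Tshz1.

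**Figure D3:**
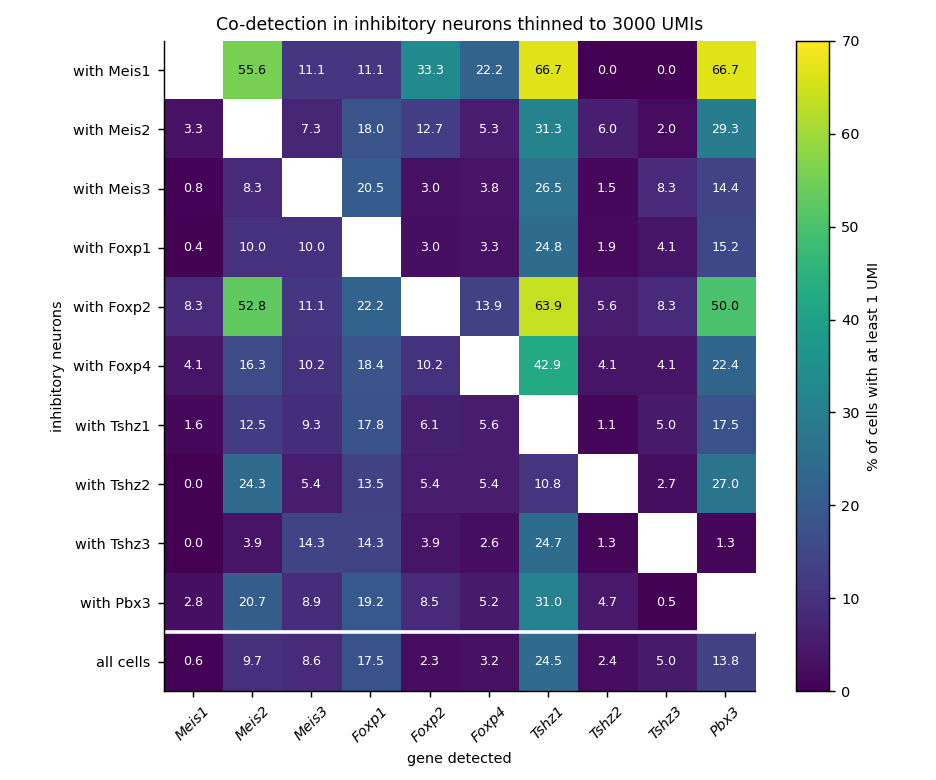
Share of inhibitory neurons with at least 1 UMI of each gene (columns) among cells with a UMI of the gene named at the left, after thinning every cell to 3000 UMIs; the bottom row gives all 1540 cells. The Foxp2 row stands at 52.8% for Meis2, and 63.9% for Tshz1, and the Meis1 row rests on 9 cells.

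The cells with the most Meis2 showed the same combination in CPM. The 102 inhibitory neurons with at least 3 Meis2 UMIs numbered 4 and 44 in knockout libraries 2 and 3, against 18, 5 and 31 in wild-type libraries 1, 2 and 3. They had 104 CPM of Foxp2 and 156 CPM of Pbx3, against 3.43 and 42.1 CPM in the 1567 cells without Meis2. Tshz3 was at 1.09 CPM in them and 28.7 CPM in the rest, and Lhx6, the MGE factor, at 5.45 and 171 CPM. Zic1, which names the Zic1-Zic4 gate, was highest in the Meis2-high cells of knockout library 3, at 917 CPM. It was at 0 CPM in those of knockout library 2, and at 8.45, 432 and 4.42 CPM in those of wild-type libraries 1, 2 and 3. The 432 CPM of wild-type library 2 rest on 5 cells. Isl1 was at 158 CPM in the Meis2-high cells of knockout library 3, against none in those of the other libraries. Without the LGE-like and Zic1-Zic4 cells, 77 Meis2-high cells remained, with 83.9 CPM of Foxp2, 172 CPM of Pbx3 and no Tshz3 UMI, against 3.4, 42.5 and 28.7 CPM. Within the CGE gate alone the 34 Meis2-high cells had 52.6 CPM of Foxp2 and no Tshz3 UMI, and the 518 without Meis2 had 0.97 and 18.7 CPM, whereas at matched depth in that gate 2 of 55 Meis2 cells had a Tshz3 UMI, a share near that of the rest. The 20 Foxp2-high cells of all inhibitory neurons had 1805 CPM of Meis2, 630 CPM of Tshz1, 485 CPM of Pbx3 and 213 CPM of Six3, an LGE factor, against 57.5, 92.8, 45.6 and 7.76 CPM in the 1733 cells without Foxp2. The 195 Tshz1-high cells had more Tshz3 and Sst, at 46.1 and 2322 CPM, against 19.1 and 786 CPM in cells without Tshz1. At matched depth Tshz3 was found in 6.80% of Tshz1 cells and 7.14% of the rest in the MGE gate, and in 4.91% and 4.08% in the CGE gate.

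By the rule of closest pattern over the 10 types, the genes most like a member were Parp1, Inhbb and Ufd1 for Foxp1 (r = 0.98, 0.97 and 0.96), Zfp536, Ccdc50 and Camk1 for Tshz1 (0.98, 0.95 and 0.95), and Sorcs1, Scn3a and Pim3 for Pbx3 (0.94, 0.94 and 0.93). For Tshz2 they were Ifi27, Cntn3 and Dtnbp1 (0.95, 0.93 and 0.92), for Tshz3 Zbtb11, Grm3 and Suds3 (0.92, 0.92 and 0.90), and for Meis2 Tbl1xr1, Iah1 and Nras (0.90, 0.89 and 0.88). For Foxp2 they were Zbed5, Gnl3 and Pou2f1 (0.92, 0.91 and 0.90). For the flat Meis3 they were Mettl8, Car2 and Lsm12 (0.94, 0.93 and 0.93), and for the sparse Meis1 Pdzrn3, Sp8 and Asic4 (0.98, 0.96 and 0.94). Of these, Zfp536, a zinc-finger repressor, was at 143 CPM in granule and 253 CPM in CGE-like neurons and 1.80 CPM in CA1 neurons. The correlation leaves out how far a gene varies. Over the types Parp1 ran between 66.9 and 105 CPM, and Foxp1 between 53.4 and 906 CPM. Nras ran between 66.3 and 105 CPM, and Meis2 between 8.79 and 501 CPM. Others varied widely, as Inhbb did between 0.69 and 41.6 CPM.

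The genotype comparison asked whether loss of Trem2 changed the member genes in neurons. No member passed an adjusted p of 0.05 in any of 7 classes with edgeR's quasi-likelihood test, in 51 tests of members that passed the filter on low counts, and the share of all genes called was 0% in each class. At an unadjusted p under 0.05 there were 9 of those 51 tests: 2 of 9 in all inhibitory neurons, where 4.98% of all genes had such a p, 0 of 7 in MGE-like (4.59%) and 3 of 7 in CGE-like neurons (4.15%). There were 2 of 10 in all excitatory neurons (2.76%), 0 of 5 in granule (6.22%), 1 of 8 in CA1 (3.38%) and 1 of 5 in CA3 neurons (4.58%). The 7 classes overlap: MGE-like and CGE-like neurons are part of all inhibitory neurons, and granule, CA1 and CA3 neurons of all excitatory neurons. The 51 tests therefore count the same cells and genes more than once and are not independent. Over all genes the median log2 fold change lay between -0.0067 and 0.0012 in the 7 classes. Counted over the 51 tests, 34 fold changes were above 0 and 17 below. With 3 residual degrees of freedom among 5 libraries, differences of this size are hard to detect, and the p-values measure the spread between pools of 2 pups.

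Pbx3 in all inhibitory neurons had the smallest p of any member. It was at 40.9 and 35.5 CPM in knockout libraries 2 and 3, against 60.8, 68.0 and 64.2 CPM in wild-type libraries 1, 2 and 3. Both knockout libraries lay below all wild-type libraries, as for 9.48% of the genes tested there, and the log2 fold change was -0.72 (SE 0.15, edgeR unadjusted p 0.00019, adjusted p 0.354). Without the filter on low counts the adjusted p was 0.0154. The same order of libraries held in CGE-like neurons, with the values given above, a log2 fold change of -0.39 (SE 0.18, edgeR adjusted p 0.999) and 8.79% of genes below in this way. In other inhibitory neurons, which were not tested, Pbx3 was at 60.0 and 56.8 CPM in the knockout libraries, against 213, 217 and 89.3 CPM in the wild-type libraries. MGE-like neurons had 13.2 and 10.2 CPM against 8.04, 16.7 and 16.2 CPM, and these overlapped. CGE-like neurons, where Pbx3 is high, were 30.2% and 28.8% of the inhibitory neurons in knockout libraries 2 and 3, against 36.5%, 37.7% and 37.7% in wild-type libraries 1, 2 and 3 (two-sided exact permutation p 0.1, the smallest that 2 against 3 libraries allow). The part of this share in the Pbx3 value was not tested. Fewer inhibitory cells of a type and less RNA per cell cannot be told apart in the summed values. At matched depth, a Pbx3 UMI was found in 13.8% and 11.5% of inhibitory neurons in knockout libraries 2 and 3. Wild-type libraries 1, 2 and 3 had 13.5%, 13.1% and 16.4%, so the groups overlapped. In the CGE gate the shares were 25.9% and 22.9% against 22.9%, 18.2% and 27.6%, which also overlapped. In other inhibitory neurons they were 10.9% and 9.41% of 46 and 85 cells, against 26.9%, 23.1% and 19.3% of 26, 13 and 83 cells. There the groups did not overlap, on few cells, and the share of all genes that separate in this way was not computed. These shares were not tested.

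Meis2 in all inhibitory neurons depended on which knockout library was read. It was at 17.1 and 106 CPM in knockout libraries 2 and 3, against 74.0, 54.0 and 69.6 CPM in wild-type libraries 1, 2 and 3, so that the knockout libraries lie on either side of the wild-type ones. The log2 fold change over all 5 libraries was -0.02 (SE 0.39, edgeR adjusted p 0.999). Without knockout library 3 it was -1.94 (edgeR adjusted p 0.00017), a comparison of knockout library 2 alone in which the wild-type libraries supply all of the spread, so that it describes this library rather than the genotype. Knockout library 3 holds 28 of the 29 Zic1-Zic4 cells and 44 of the 102 Meis2-high cells, and with the LGE-like and Zic1-Zic4 cells left out it had 61.7 CPM, within the wild-type values of 66.7, 47.0 and 58.4 CPM, while knockout library 2 stayed at 17.1 CPM.

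**Figure D4:**
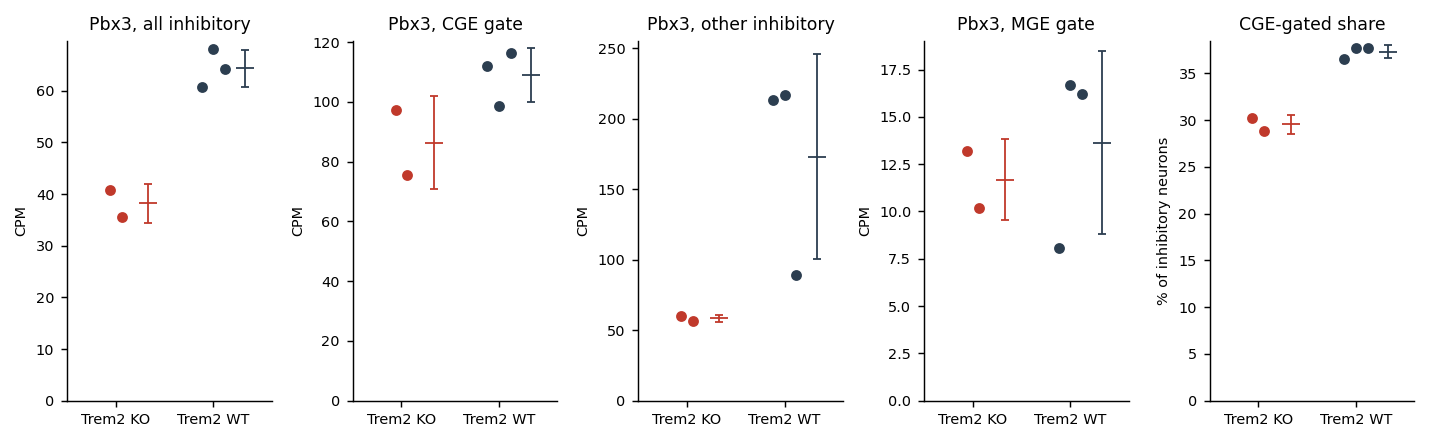
Pbx3 in CPM in 4 inhibitory classes and the share of inhibitory neurons in the CGE gate, with the 2 Trem2 KO libraries left and the 3 Trem2 WT libraries right in each panel; dots are libraries, bars mean ± SD. In all inhibitory neurons both KO libraries (40.9 and 35.5 CPM) lie below the WT libraries (60.8 to 68.0 CPM).

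Foxp2 and Tshz3 ranked next in inhibitory neurons. Foxp2 had 2.45 and 8.38 CPM in knockout libraries 2 and 3, against 21.2, 5.4 and 11 CPM in wild-type libraries 1, 2 and 3, which overlap, with a log2 fold change of -1.11 (SE 0.43, edgeR adjusted p 0.942). Tshz3 had 30.1 and 30.6 CPM against 26.4, 33.5 and 18.8 CPM, with 0.37 (SE 0.21, edgeR adjusted p 0.942). The remaining 6 members tested in this class ranged between -0.13 and 0.22 on the log2 scale. Cells with both Meis2 and Foxp2 UMIs were 0.36% and 0.41% of thinned inhibitory neurons in knockout libraries 2 and 3, against 4.15%, 1.19% and 1.40% in wild-type libraries 1, 2 and 3 (two-sided exact permutation p 0.3). In CGE-like neurons the smallest p values belonged to Tshz3, at 1.00 (SE 0.38), and Meis2, at -0.58 (SE 0.26), besides Pbx3, all with an edgeR adjusted p of 0.999. In MGE-like neurons they belonged to Foxp1, Tshz3 and Meis2, at 0.25 (SE 0.18), 0.22 (SE 0.22) and -0.31 (SE 0.42), with edgeR adjusted p values of 0.941, 0.952 and 0.966.

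In all excitatory neurons Foxp4 had 24.1 and 25.9 CPM in knockout libraries 2 and 3, against 21.4, 19.7 and 22.0 CPM in wild-type libraries 1, 2 and 3. Both knockout libraries lay above, as for 8.89% of genes, with a log2 fold change of 0.27 (SE 0.10, edgeR adjusted p 0.997). Foxp4 lies 422 kb from Trem2 on chromosome 17 in GENCODE M21 (GRCm38), and whether the region around the Trem2 allele has a part in this value was not tested. Foxp2 had 1.45 and 1.56 CPM against 1.96, 2.01 and 7.47 CPM, with -1.38 (SE 0.55, edgeR adjusted p 0.997), and 8.83% of genes lay below in the same way. Wild-type library 3 alone is high, through the few Foxp2-rich cells described above. Over the settings tried this fold change ranged between -1.68 and -0.39. Meis2 had 236 and 221 CPM against 288, 234 and 262 CPM, with -0.17 (SE 0.10, edgeR adjusted p 0.997), and the groups overlapped.

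Granule neurons had Foxp1 at 87.3 and 103 CPM in knockout libraries 2 and 3, against 83.9, 68.9 and 84.7 CPM in wild-type libraries 1, 2 and 3, with a log2 fold change of 0.28 (SE 0.14, edgeR adjusted p 0.829). The groups did not overlap, as for 11.3% of genes above. Foxp4 and Meis2 followed there at 0.27 (SE 0.25) and -0.09 (SE 0.22), with edgeR adjusted p values of 0.930 and 0.978. In CA3 neurons Tshz1 was at 11.4 and 11.7 CPM against 10.4, 4.52 and 3.68 CPM, with 1.14 (SE 0.44, edgeR adjusted p 0.963), and 9.66% of genes lay above in this way. These Tshz1 values rest on 19 and 20 UMIs in 8 and 6 cells, against 9, 4 and 11 UMIs in 4, 3 and 10 cells. The shares of CA3 neurons with a Tshz1 UMI overlapped between the groups, at 11.9% and 8% against 10.8%, 8.33% and 7.46%. Foxp4 and Foxp1 in CA3 neurons stood at 0.37 (SE 0.31) and 0.13 (SE 0.16), with edgeR adjusted p values of 0.963 and 0.964.

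In the CA1 gate, with its Tshz2-high cells included, Tshz3 had 3.65 and 40.0 CPM in knockout libraries 2 and 3, against 10.4, 0 and 7.84 CPM in wild-type libraries 1, 2 and 3, with a log2 fold change of 1.61 (SE 0.69, edgeR adjusted p 1.00). Knockout library 3 alone is high, it holds 26 of the 67 Tshz2-high cells, and without it the fold change was -0.94. Tshz2 stood at 0.81 (SE 0.71) (edgeR adjusted p 1.00) and at -1.79 without that library. Without the filter on low counts the edgeR adjusted p was 1.6e-05 for Tshz3 and 6.7e-05 for Tshz2, although the libraries of both groups overlap. Foxp4 stood at 0.24 (SE 0.17, edgeR adjusted p 1.00). Foxp4 was at 40.2 and 33.9 CPM in the knockout libraries, against 31.6, 34.0 and 31.1 CPM in the wild-type libraries, which overlap narrowly as CPM and not after TMM scaling, as for 9.58% of genes above.

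**Figure D5:**
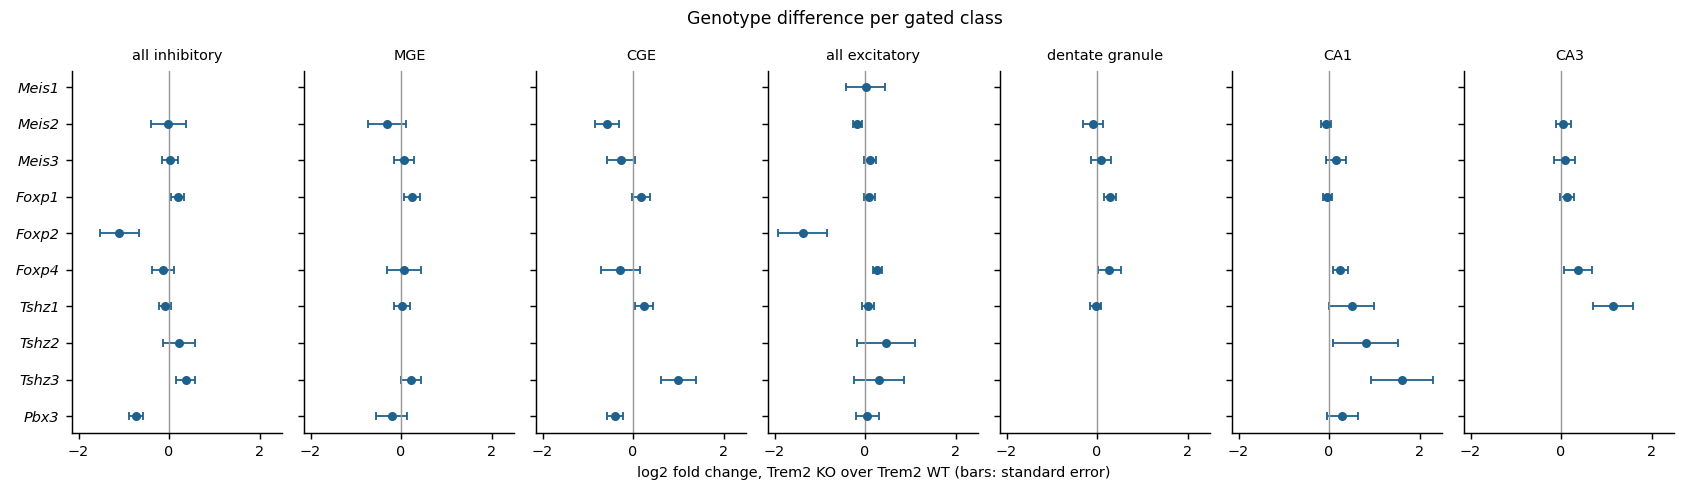
Log2 fold change, Trem2 KO over Trem2 WT (x), with standard errors as bars, of the members tested (y) in 7 gated classes (panels). Pbx3 in all inhibitory neurons stands at -0.72 with an SE of 0.15, and no value passes an adjusted p of 0.05.

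The difference between the genotype effects in inhibitory and excitatory neurons, fitted with library as a block, was called for 14 of 14570 genes, or 0.0961%, and for no member. An unadjusted p under 0.05 was found for 1 of 10 members, against 3.95% of all genes. This member, Pbx3, had a difference of -0.76 (SE 0.25, edgeR unadjusted p 0.0054, adjusted p 0.803) and Foxp4 and Tshz1 of -0.39 (SE 0.23) and -0.20 (SE 0.15), each with an adjusted p of 1.00. With 1 knockout library left, so that the wild-type libraries supply all of the spread between replicates, the difference for Meis2 changed sign with the library: it was -1.82 without knockout library 3 (edgeR adjusted p 2e-07) and 0.92 without knockout library 2 (edgeR adjusted p 1.4e-05). Related genes were read by the same tests: 7 further TALE homeobox genes, 4 forkhead genes, 6 co-repressors and 22 factors of the inhibitory lineages. None of these 39 was called in any class. In all inhibitory neurons 17 of 32 tested lay above 0.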

How the data were processed

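UMI counts per gene and cell barcode were deposited by the authors, 1 matrix per library, from 10x Genomics 3' libraries. They were made with Cell Ranger 6.1 on build mm10, per the submitters' processing notes. The members, gene lists and tests were chosen with earlier results of these data known.

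Cells with at least 1000 UMIs, 500 genes and at most 15% mitochondrial UMIs were kept. Scrublet (scanpy 1.11.5) marked doublets, and where its automatic cut took under 0.5% of cells the expected number was removed (0.8% per 1000 barcodes), 1469 cells in all. A neuron needed 3 marker UMIs from 2 distinct markers of its class and 3 times those of the other class. An excitatory type needed 2 distinct markers, 2-fold enrichment and a 1.5-fold lead, and an inhibitory type 2 distinct markers and more than any other type. Markers found at similar levels across types were dropped after the counts were seen. Near these limits lay 1487 excitatory and 79 inhibitory cells.

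Sums of counts over the cells of a class in a library were compared by edgeR 4.0.16 (filterByExpr, TMM, quasi-likelihood, Benjamini-Hochberg over all genes), in classes with at least 20 cells per library, on simulated data first. DESeq2 1.42.0, other size factors, no low-count filter, a replicate block, leaving out libraries, stricter gates, a 5% mitochondrial limit, doublets kept and thinning to 3000 UMIs were tried. Groups that do not overlap were judged on TMM-scaled values. In each class the 3 members with the smallest p are given with fold change, SE and adjusted p. Genes most like a member are the 3 non-members with at least 20 CPM in some type and the highest Pearson correlation of log2(CPM + 1). UMI counts are limited by depth and by free RNA. Microglia are given as a comparison and are not a floor of free RNA. Pbx3, for one, averaged 21.3 CPM in microglia and 0.53 CPM in its lowest neuron type. No protein sequences were used here. The LGE-like cells (9) were too few to test. The genes most like Foxp4 and the values of some related genes are not reported here.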

Additional observations from a re-analysis of the deposited data

Results flagged for a closer look

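For Foxp4 both knockout libraries were above every wild-type library in excitatory neurons, as for 8.89% of all genes, and below every one in inhibitory neurons, as for 9.48% of all genes. Neither class passed the test (log2 fold change 0.27, edgeR adjusted p 0.997, in excitatory and -0.13, adjusted p 0.987, in inhibitory neurons). The difference of the log2 fold changes, inhibitory minus excitatory, was -0.39 (SE 0.23, edgeR adjusted p 1.00). In inhibitory neurons Foxp4 had 10.5 and 10.0 CPM in knockout libraries 2 and 3, against 11.8, 10.8 and 11.5 CPM in wild-type libraries 1, 2 and 3. Those rest on 30 and 55 UMIs, against 25, 10 and 53.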

How the results depend on the processing

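No member was called with DESeq2, RLE size factors, stricter gates, doublets kept, a 5% mitochondrial limit or thinning, where these could be run. With 1 knockout library left, the wild-type libraries supply all of the spread. Without knockout library 3, Meis2 was called in inhibitory neurons (-1.94, edgeR adjusted p 0.00017) and in the inhibitory minus excitatory effect (-1.82, adjusted p 2e-07). Without knockout library 2, Meis2 was called in that effect with the other sign (0.92, adjusted p 1.4e-05). Without the low-count filter the genes called were 50 in all inhibitory, 29 in MGE-like, 14 in CGE-like, 10 in excitatory, 57 in granule, 13 in CA1 and 11 in CA3 neurons, and 55 for the inhibitory minus excitatory effect. Among them were Pbx3 in inhibitory neurons (-0.70, edgeR adjusted p 0.0154, against 0.0154 to 1.00 over all settings) and, in CA1 neurons, Tshz3 (1.61, adjusted p 1.6e-05) and Tshz2 (0.81, adjusted p 6.7e-05), and Foxp2 in granule neurons (-4.09, adjusted p 0.0105), where the low-count filter over 5 libraries leaves it out. The replicate block uses 2 pairs of numbers that no label ties to a shared litter or day. The pools of a pair do hold the same sexes, so the block also matches sex, whose part was not tested. It called 11, 6, 22, 31, 258, 8 and 36 genes in the same 7 classes. Among them were Tshz3 at 2.44 (edgeR adjusted p 0.0045) and Tshz2 at 1.66 (adjusted p 0.002) in CA1 neurons. Tshz2 at 1.23 (adjusted p 0.0177) in all excitatory neurons and Foxp2 at -3.90 (adjusted p 0.0263) in granule neurons were also called. For each gene, the deviation of library 2 from the mean of libraries 2 and 3 was taken within each genotype. Between knockout and wild type these deviations correlated over genes at 0.15 to 0.39 in the 7 classes. DESeq2 called 1 gene each in inhibitory, excitatory and CA1 neurons and 1 for the difference of effects. The 5% mitochondrial limit called 4 in excitatory and the stricter gate 1 in CA1 neurons.

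With 1 library left out the genes called ranged between 0 and 23 in inhibitory, 1 and 10 in MGE-like, 0 and 13 in CGE-like, 0 and 2 in excitatory, 0 and 4 in CA3 neurons, 0 in granule and CA1 neurons, and 8 and 45 for the difference of effects. The most in inhibitory neurons came without knockout library 2, and in MGE-like neurons without wild-type library 2. Directions changed without wild-type library 3 for Tshz3 and Meis2 in MGE-like neurons (ranges of -0.018 to 0.41 and -0.67 to 0.22 with 1 library left out), for Meis2 in granule neurons (-0.24 to 0.27), which also turned without knockout library 2, at 0.0098, for Foxp1 in CA3 neurons (-0.051 to 0.24) and for the Tshz1 difference of effects (-0.38 to 0.065). They changed without knockout library 3 for Tshz3 (-0.94 to 2.47) and Tshz2 (-1.79 to 1.68) in CA1 neurons. Thinning turned Foxp1 (-0.11) and Tshz3 (-0.13) in MGE-like and Meis2 in granule neurons (0.24). Doublets kept turned Meis2 in granule neurons (0.0495), and the 5% mitochondrial limit the Tshz1 difference (0.059). The cause was not tested.

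The LGE-like share differed by -0.11 percentage points, knockout minus wild type, by -0.47 to 0.25 with 1 library left out, 0.29 under the stricter gate and 0.10 under the 5% mitochondrial limit. The Meis2 and Foxp2 share differed by -1.86 points, and by -2.38 to -0.91 with 1 library left out. The CGE share kept its direction throughout. Of 190 recomputed levels, 33 moved by more than their SD. Stricter gates lowered Meis2 in CGE-like (29.1 CPM) and other inhibitory neurons (126 CPM), and Foxp2 (16.2 CPM) and Pbx3 (73.3 CPM) in other inhibitory neurons. Means over cells raised Pbx3 to 150 CPM in CGE-like and 23.5 CPM in MGE-like neurons. Not run for too few cells were the 5% limit in MGE-like, CGE-like, CA1 and CA3 neurons and the stricter gate in granule neurons. The 5% limit kept 514 of 2484 and 1191 of 2368 excitatory neurons in knockout libraries 2 and 3. In wild-type libraries 1, 2 and 3 it kept 1115 of 2057, 355 of 1517 and 3003 of 3472. Libraries thus differed in mitochondrial share, and the pools numbered 2 kept the least. The part of this in the other values was not tested.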

Other observations

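Outside neurons some members were high in endothelial cells, fibroblasts or oligodendrocyte precursors, and others were low there. Tshz2 averaged 181 ± 15.3 CPM in endothelial cells and 93.2 ± 12.6 CPM in oligodendrocyte precursors (SD, n = 5 libraries). Foxp2 was at 59.4 ± 6.88 CPM in fibroblasts, above its mean in each of the 10 neuron types with cells in all libraries. Foxp1 was at 273 ± 35.2 CPM in endothelial cells and 229 ± 33.8 CPM in fibroblasts, and Pbx3 at 69.4 ± 8.95 CPM in fibroblasts. Meis2 was at 131 ± 26.0 CPM in oligodendrocyte precursors but at 10.0 ± 7.89 CPM in endothelial cells and 9.99 ± 4.87 CPM in fibroblasts, and endothelial cells had 2.76 ± 2.07 CPM of Foxp4 and 7.76 ± 3.63 CPM of Meis3. Meis1 reached 15.8 ± 2.82 CPM in oligodendrocyte precursors, against at most 4.72 CPM on average in the 10 neuron types. Astroglia or radial glia, at 5.30 ± 0.45 CPM, were close to that highest neuron type. Among the 9 LGE-like cells, Meis2 was at 765 CPM in knockout library 3, against 1664 and 3232 CPM in wild-type libraries 1 and 3, and the Zic1-Zic4 cells of knockout library 3 had 671 CPM.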
